A study of Danio rerio with 12 samples.

Results

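The 6 arrays described here set RNA from zebrafish larvae kept in silver nitrate (AgNO3) against RNA from unexposed larvae, and they are 6 of the 12 arrays in the series. They were chosen by their title, which pairs a control with AgNO3, and the other 6 arrays set silver nanoparticles (AgNPs) against control. The fish were AB wild types aged 21 days, and RNA came from entire larvae. From 6 days post fertilization they were held for 15 days in 1 of 3 kinds of water: conditioned water with silver nitrate at 0.01 mg/L, with silver nanoparticles at 0.01 mg/L, or, for the controls, conditioned water with methylene blue, a dye used against mould on eggs. No source used here says whether the silver groups also had methylene blue; if only the controls had it, its absence and silver cannot be told apart. The samples are labelled as biological replicates, but no source used here gives the number of tanks or of larvae pooled. The p-values therefore cover the spread between these 6 samples only, which may be technical.

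Silver nitrate is a soluble salt that releases silver ions into the water. Silver ions enter the gill and skin cells of fish largely along the routes for sodium and copper, and they block the sodium pump of ionocytes, the ion-transporting cells of the skin and gill. Inside cells they bind the thiol groups of glutathione, of metallothioneins and of many enzymes. Metallothioneins are small cysteine-rich proteins that are induced by zinc, cadmium, copper and silver through the metal-responsive factor Mtf1. Other known responses to reactive metals are the heat shock response, the unfolded protein response of the endoplasmic reticulum and the antioxidant programme under Nrf2.

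Each array held 2 RNAs, labelled with Cy3 and Cy5, that compete for the same probes, and each value is the log2 ratio of AgNO3 over control for 1 probe. On replicates 1 to 3 the exposed RNA carried Cy5 and on replicates 4 to 6 it carried Cy3. This direction is assumed and not settled. Replicates 1 to 3 are taken as Cy5 over Cy3, as is customary, and replicates 4 to 6 as turned before deposit. The sources used here state neither. The interquartile range of an array was 0.216 to 0.342, and 7.11% to 10.9% of its values were empty. Replicate 4 had the most empty values and the lowest weight, 0.583, when limma weighted the arrays by their fit. Over all genes and unnamed probes tested, arrays of 1 dye orientation correlated at 0.0249 to 0.212 (6 pairs). Arrays of opposite orientation correlated at -0.0839 to 0.00698 (9 pairs), so the values of 1 array told little of those of another. Intensities were not analysed here, which leaves signal over background unknown, and whole larvae could not be checked against tissue markers because a ratio has no level.

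The question the arrays address is which transcripts of the larva differ after the silver salt. In limma, with a dye term and the 6 arrays alone, 0 of 26313 features passed an adjusted p of 0.05 (0%), and the smallest adjusted p was 0.266. A feature is a gene, as the mean of its probes, or a probe without a gene name; there were 14573 genes and 11740 unnamed probes. Of 40091 single probes, 0 passed as well (0%), with a smallest adjusted p of 0.537. An unadjusted p under 0.05 was reached by 631 features with a higher value in AgNO3 (2.40%), by 811 with a lower one (3.08%) and by 2308 single probes. Both sides together were 5.48% of the features, close to the share that this cutoff passes where no feature differs. Of 20731 features with values on every array, 416 were higher on 6 of 6 (2.01%) and 522 lower on 6 of 6 (2.52%). When all 12 arrays entered 1 fit with a shared spread, 3 of 25264 features passed (0.0119%), and all 3 were lower. These were ace, grna.2 and an unnamed probe, A_15_P760451, which stood at -0.57 (SE 0.08 on the 6 arrays). The AgNPs arrays in that fit mostly had narrower log ratios, with an interquartile range of 0.0946 to 0.293. Their part in these passes was not tested. The SE in that fit was 0.09 for ace and 0.07 for grna.2, beside 0.07 and 0.05 on the 6 arrays. For the unnamed probe it was 0.07.

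Most ratios were small: the median size over all features was 0.0957, and 88 features had a ratio beyond 1 in either direction. The features were close to evenly split, with 12703 higher and 13610 lower and a median of -0.0051. The 139 features named below had limma adjusted p-values between 0.266 and 0.973, so their values describe these arrays and none is a call. Gene groups are read against the shares and the median given here. In whole larvae, fewer cells of a type and less RNA per cell cannot be told apart.

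The ratio of ace was below 0 on every array. This gene codes for angiotensin-converting enzyme, a peptidase of cell surfaces that makes angiotensin II and breaks down bradykinin. The log2 ratios were -0.92, -0.71 and -0.89 with the exposed RNA in Cy5 and -0.56, -0.96 and -0.77 with it in Cy3, with a mean of -0.80 (SE 0.07, n = 6, limma adjusted p = 0.266). All 3 of its probes were lower, with means of -0.93, -0.78 and -0.70. Renin-angiotensin genes as a group did not share that size. Of 12 members tested, 8 were lower and 4 higher with a median of -0.05, and 3 had an unadjusted p under 0.05, all lower. Angiotensinogen (agt), the precursor that renin cuts, stood at -0.36 (SE 0.11) and was lower on 5 arrays. The glutamyl aminopeptidase enpep, which trims angiotensin II, stood at -0.36 too (SE 0.10), also lower on 5.

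The granulin gene grna.2 had the lowest p of all features. Granulins are cysteine-rich peptides cut from a precursor that, in mammals, serves growth, inflammation and lysosomes. Its log2 ratios were -0.70, -0.66 and -0.69 in Cy5 and -0.71, -0.63 and -0.61 in Cy3, with a mean of -0.67 (SE 0.05, n = 6, limma adjusted p = 0.266). Both of its probes were lower, at -0.63 and -0.70. The other granulin genes did not come near it, although the means of all 4 were below 0. The value was -0.16 for grnb (SE 0.10, and -0.26 without replicate 3), -0.21 for grna.1 (SE 0.22) and -0.09 for grna (SE 0.11, and 0.014 without replicate 6). For grna.1 the arrays ran from -1.02 to 0.27, and without replicate 1 its mean was 0.0014. Tandem copies of grna are alike in sequence, and probes may bind RNA of more than 1 copy.

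**Figure D1:**
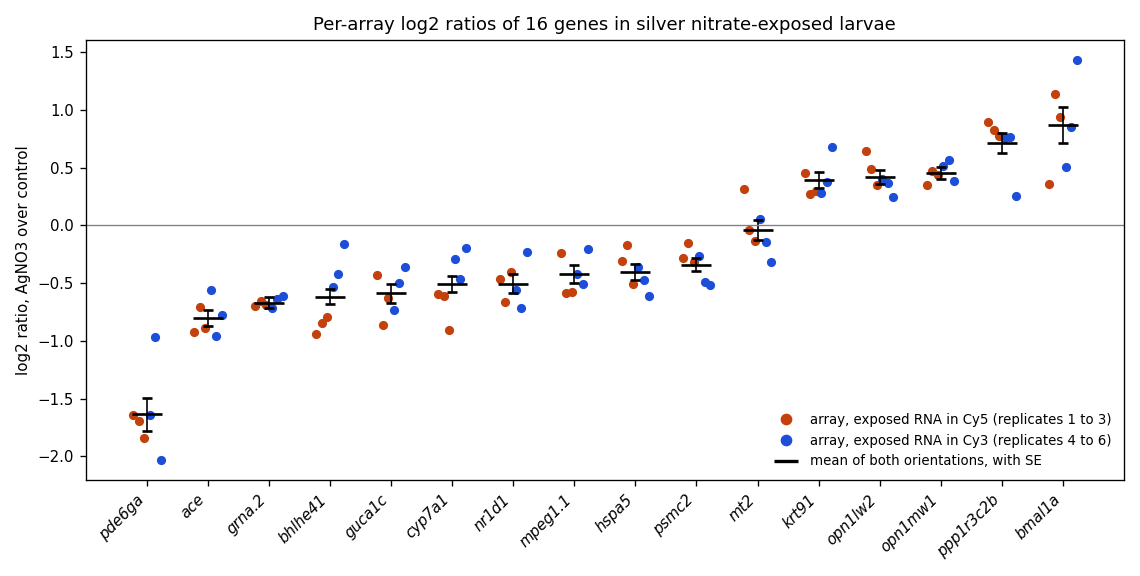
Log2 ratios of AgNO3 over control (vertical axis) for 16 genes on each of the 6 arrays, as points coloured by the dye of the exposed RNA, with the mean of both orientations and its SE as black bars. The points of grna.2 lie within -0.71 to -0.61 and those of ace within -0.96 to -0.56, whereas the points of mt2, a metallothionein, lie on both sides of 0.

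Lists of genes that bind or carry metals had medians near 0, although single members did not. The metallothionein gene mt2, a standard marker of metal exposure in fish, had log2 ratios of 0.32, -0.04 and -0.14 in Cy5 and 0.05, -0.14 and -0.32 in Cy3. Its mean was -0.04 with a 95% interval of -0.26 to 0.17 (SE 0.09, limma adjusted p = 0.908), with 3 probes higher and 1 lower, and became -0.11 without replicate 1. The lower probe had a mean of -0.41 (SE 0.19), with -0.19, -0.91 and -1.62 on replicates 4 to 6. The means of the other 3 probes lay between 0.04 and 0.10. The arrays lay on both sides of 0. The other metallothionein-type gene with a value to name, mtbl, stood at 0.13 (SE 0.12), at 0.24 without replicate 4, and was below 0 on 2 arrays.

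Copper genes gave few low p-values. Of 14 genes for metallothioneins and copper handling, 7 were higher, 7 lower and 0 had an unadjusted p under 0.05, with a median of 0.00. The copper importer slc31a1, a route that silver can share, had a mean of -0.25 (SE 0.12) that became -0.14 without replicate 2, with 2 of its 7 probes higher. Another member, ccs, the copper chaperone of superoxide dismutase, had a mean of -0.31 (SE 0.19) that rested on replicate 5, and was -0.098 without it. Of its 2 probes, 1 had enough values to be tested, with a mean of 0.007 and -0.0039 on replicate 5. Of 20 zinc transporters, 14 were lower and 1 had an unadjusted p under 0.05, slc39a7, which moves zinc out of the endoplasmic reticulum, at -0.22 (SE 0.07). The member farthest from 0 was slc39a5, a zinc importer, at -0.72 (SE 0.38), which was higher on 2 arrays and became -0.30 without replicate 3. The zinc exporter slc30a1a, a target of Mtf1, had a mean of -0.06 (SE 0.07), and -0.11 without replicate 1.

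Of 22 iron genes, 13 were lower, and 2 of these had an unadjusted p under 0.05. The list median was nevertheless above 0 on 5 of 6 arrays. The transferrin receptor tfr1b stood at -0.27 (SE 0.08), with -0.47 in Cy5 and -0.07 in Cy3. The mitochondrial iron importer slc25a37 (mitoferrin), which serves haem synthesis in red cells, stood at -0.29 (SE 0.09), with -0.03 in Cy5 and -0.55 in Cy3. In both genes the value came mainly from arrays of 1 orientation. In slc25a37 single probes weighed much, such as 1 at -2.47 on replicate 4 and another at -3.20 on replicate 6.

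The known stress genes fixed for description did not stand apart either. Haem oxygenase hmox1a was at -1.10 on replicate 4 and -0.63 on replicate 3 but between 0.02 and 0.09 on the other 4 arrays, so its mean of -0.25 (SE 0.19) became -0.061 without replicate 4. The inducible heat shock gene hsp70l ranged from -1.49 to 1.13 over the arrays, with a mean of -0.14 (SE 0.35) that became 0.16 without replicate 4 and -0.50 without replicate 5. For gclm, the modifier subunit of the enzyme that starts glutathione synthesis, the mean was -0.01 (95% interval -0.23 to 0.20). For cyp1a, the classic target of the aryl hydrocarbon receptor, it was -0.14 (SE 0.16), with 0.28 in Cy5 and -0.57 in Cy3, and 0.027 without replicate 4. The interval of hsp70l was -1.01 to 0.74, so a sizeable difference of that gene was not detectable with these arrays.

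Among the stress lists, Nrf2 targets and glutathione synthesis genes were split 13 higher to 15 lower (median -0.01, 28 tested). Peroxiredoxins, thioredoxins and related enzymes were split 14 to 13 (median 0.01). Within that list gpx4a, the peroxidase that repairs lipid peroxides in membranes, was lower on 6 of 6 arrays, from -0.60 to -0.02, with a mean of -0.29 (SE 0.05). Its 3 probes were all lower, but the Cy5 arrays gave -0.09 and the Cy3 arrays -0.49. Thioredoxin-like txnl1 was lower on 6 of 6 arrays, with a mean of -0.44 (SE 0.10), and at -0.42 and -0.46 the orientations were close. By contrast prdx1, a peroxiredoxin, stood at 0.33 (SE 0.09), higher on 5 arrays and with 3 of 3 probes. Nrf2 targets of low p were 2 on each side, among them the organic anion exporter abcc2 at -0.24 (SE 0.06), with 0.10 in Cy5 and -0.57 in Cy3.

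Glutathione transferases were higher for 14 of 22 members, and the unadjusted p was under 0.05 for 4 on the higher and 1 on the lower side. The alpha class genes gsta.1 and gsta.2 stood at 0.29 (SE 0.09) and 0.32 (SE 0.10), and gstr, of a class known from fish, at 0.36 (SE 0.14). Each of these was higher on 5 arrays. The lower one was gstp1.1, of the pi class, at -1.08 (SE 0.30), from -2.34 to -0.07 over 6 arrays all below 0.

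Endoplasmic reticulum and proteasome genes lay below 0 as groups. Of 40 genes for endoplasmic reticulum chaperones and the unfolded protein response, 31 were lower (77.5%, against 51.7% of all features), and 22 were if the signs of the swapped arrays, replicates 4 to 6, are turned ("when turned" below). The median over the list was -0.10, and it was below 0 on 6 of 6 arrays, from -0.15 to -0.01. With an unadjusted p under 0.05 there were 6 lower and 1 higher members. The main chaperone of that compartment, hspa5 (BiP), had log2 ratios of -0.30, -0.17 and -0.50 in Cy5 and -0.36, -0.47 and -0.61 in Cy3, with a mean of -0.40 (SE 0.07, limma adjusted p = 0.638). All 6 arrays and all 6 of its probes were below 0, with probe means from -0.67 to -0.25, and the mean was 0.077 when turned.

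Other members named by p were less even. The value of herpud1, which aids the breakdown of misfolded proteins, was -0.55 (SE 0.19), lower on 6 of 6 arrays, between -1.24 and -0.06. Its 2 probes differed, with means of -0.06 (SE 0.10) and -1.05 (SE 0.38), so its size came mainly from 1 probe. The chaperone-like gene creld2 had a mean of -0.39 (SE 0.10), made of 0.04 in Cy5 and -0.82 in Cy3, and -0.28 without replicate 4. The higher member was atf4a, a transcription factor of the integrated stress response, at 0.17 (SE 0.05), made of 0.41 in Cy5 and -0.06 in Cy3. Both values were thus those of 1 dye orientation. That of creld2 rested mainly on a different probe on each Cy3 array, at -3.67, -1.43 and -1.77.

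Proteasome subunits were lower for 37 of 46 members (27 when turned), with a median of -0.09, and the unadjusted p was under 0.05 for 9 on the lower and 1 on the higher side. The list median was below 0 on 5 arrays and 0.04 on replicate 5. The ATPase subunit psmc2 of the regulatory particle ranged from -0.52 to -0.15 over the arrays, with a mean of -0.34 (SE 0.06). Its 2 probes differed, with means of -0.61 and -0.07, and the latter read 0.05 on replicate 1 and 0.36 on replicate 6. The catalytic subunit psmb10, which in mammals belongs to the immunoproteasome, stood at -0.34 (SE 0.08), from -0.59 to -0.15. Its 3 probes had means of -0.61, -0.28 and -0.14, and some of them were above 0 on replicates 4 and 5. The core subunits psma5 and psmb3 stood at -0.34 (SE 0.08) and -0.35 (SE 0.09). All 4 were lower on 6 of 6 arrays, and they were the only such members among the 44 with values on every array.

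Cytosolic heat shock genes were mixed, with 27 of 45 lower, a median of -0.03, and 3 members with an unadjusted p under 0.05 on each side. The inducible hsp70.3 had a mean of -0.46 (SE 0.12), with -0.14 in Cy5 and -0.78 in Cy3. On the higher side stood cct7, a subunit of the chaperonin for actin and tubulin, at 0.22 (SE 0.06), fkbp4, a steroid receptor co-chaperone, at 0.20 (SE 0.06), and dnaja1, a partner of Hsp70, at 0.17 (SE 0.05). All of these were higher on 6 of 6 arrays, although dnaja1 gave 0.02 in Cy3.

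**Figure D2:**
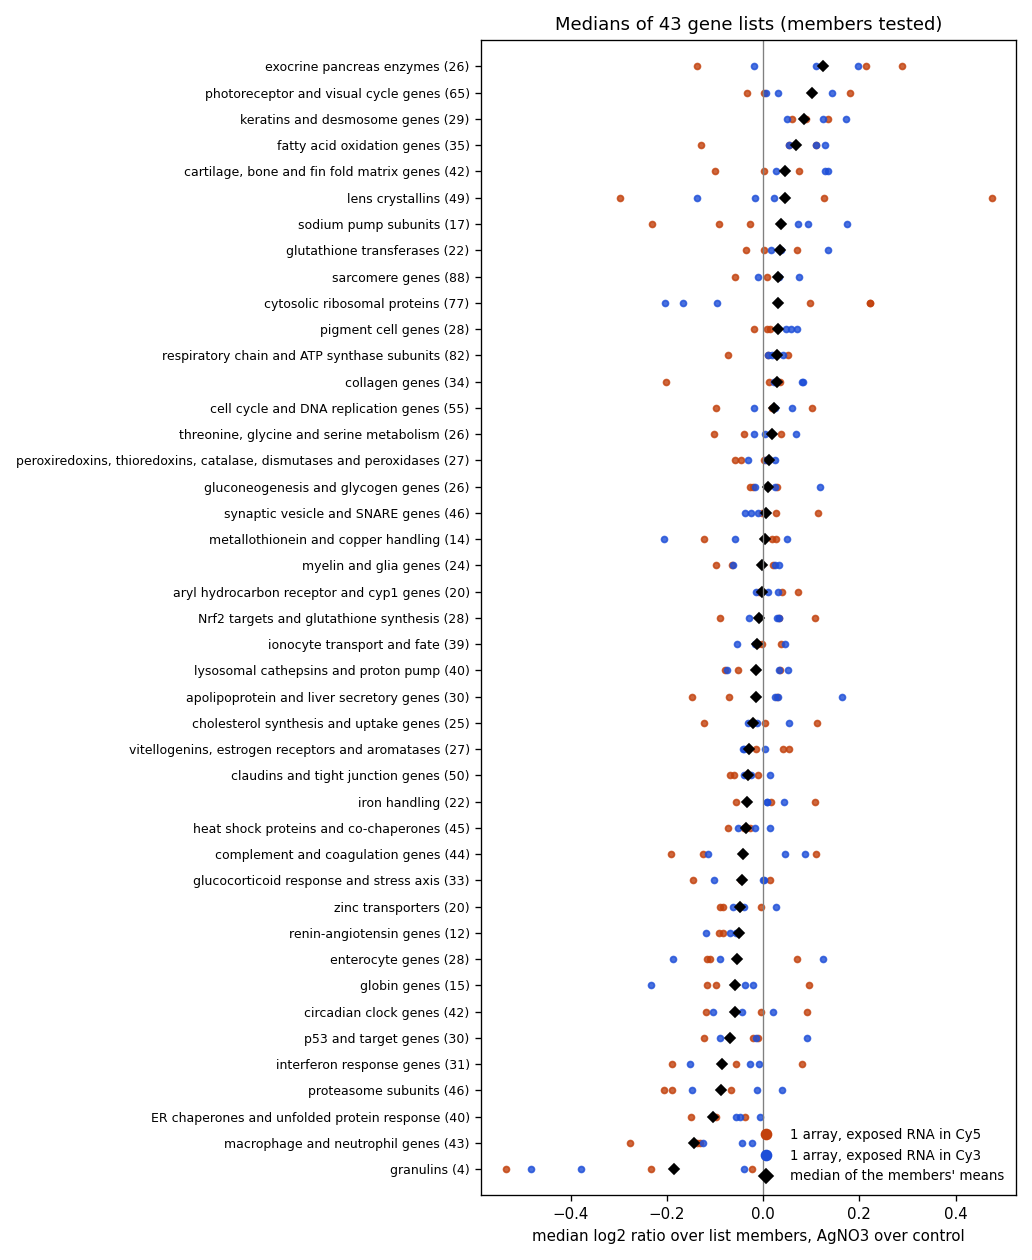
Medians of the log2 ratio (horizontal axis) over the members tested of 43 gene lists, with the number of members in brackets. Each small point is 1 array, coloured by the dye of the exposed RNA, and the diamond is the median of the members' means. Macrophage and neutrophil genes (-0.14) and keratin genes (0.09) had all 6 points on 1 side of 0, whereas the points of ribosomal protein genes lay above 0 in Cy5 and below it in Cy3. With the swapped arrays turned these medians were -0.05, -0.05 and 0.19.

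Of 43 macrophage and neutrophil genes, 37 were lower, and 35 were with the swapped arrays turned. Their median was -0.14 (-0.05 when turned), below 0 on 6 of 6 arrays, from -0.28 on replicate 3 to -0.02 on replicate 6. With an unadjusted p under 0.05 there were 7 lower and 0 higher members, and 5 of 42 were lower on 6 of 6 arrays. The perforin-like gene mpeg1.1, a marker of macrophages in zebrafish, had log2 ratios of -0.24, -0.59 and -0.58 in Cy5 and -0.42, -0.50 and -0.20 in Cy3, with a mean of -0.42 (SE 0.08, limma adjusted p = 0.638). No array reached 0, and both of its probes were lower.

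The cathepsin S gene ctss2.1, a lysosomal protease of antigen-presenting cells in mammals, stood at -0.66 (SE 0.15), between -1.37 and -0.28. Its 3 probes had means of -0.68, -0.84 and -0.03, and the -1.37, on replicate 6, came from 1 probe because the others were empty there. The value of irg1l, which is induced in infection, was -0.39 (SE 0.09), and that of the chemokine receptor cxcr4b was -0.34 (SE 0.09). All of these were lower on 6 of 6 arrays. Interferon response genes were lower for 24 of 31 members (12 when turned), with a median of -0.09 (0.02 when turned). At an unadjusted p under 0.05 there were 3 lower members. These were psmb10, named above with the proteasome, b2m, the light chain of major histocompatibility class I, at -0.41 (SE 0.10), and ifi27.1 at -0.45 (SE 0.14). In the last pair the Cy3 arrays were lower, at -0.63 and -0.80, than the Cy5 arrays, at -0.19 and -0.11. Of the 2 probes of ifi27.1, 1 had enough values to be tested, with a mean of -0.26. That probe read 0.14 on replicate 5, where the gene value was -1.36. Complement and coagulation genes, many but not all of them made by the liver, were lower for 30 of 44 members. However, 0 had an unadjusted p under 0.05 and the list median was below 0 on 3 of 6 arrays.

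Keratins lay on the other side. These proteins form the intermediate filaments of epidermis and other epithelia. Of 29 keratin and desmosome genes, 18 were higher and 11 lower (21 lower when turned), and the unadjusted p was under 0.05 for 10 on the higher and 2 on the lower side. Of 28 with values on every array, 8 were higher on 6 of 6 and 1 lower. The list median was 0.09, above 0 on 6 of 6 arrays, and it lay between 0.06 and 0.15 with any array left out. The type I keratin genes cyt1 and cyt1l stood at 0.41 (SE 0.08) and 0.45 (SE 0.09). All 7 probes of cyt1l were higher, and its arrays ran from 0.06 to 0.78. The value of krt91 was 0.39 (SE 0.07), from 0.27 to 0.68 over the arrays, with 5 of 5 probes higher, and that of krt96 was 0.33 (SE 0.08), with 0.56 in Cy5 and 0.11 in Cy3. Keratin genes are close in sequence, so their probes may bind each other's RNA and the members are not independent.

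Other genes of skin and gill gave other values. Claudins and tight junction genes were higher for 22 of 50 members (median -0.03), and cldne, a claudin of epithelia, had a mean of -0.41 (SE 0.09), lower on 6 of 6 arrays and with 6 of 6 probes. Of the other members of low p, cldn7a stood at -0.31 (-0.21 without replicate 2), cldn23.1 at -0.29 (-0.19 without replicate 2) and cldn2, a claudin of leaky epithelia in mammals, at 0.20 (SE 0.07). Ionocyte genes were split 19 to 20. Among them rhcga, the ammonia channel of ionocytes, stood at -0.57 (SE 0.18, and -0.37 without replicate 5) and the water and glycerol channel aqp3a at -0.36 (SE 0.11), both lower on 6 of 6 arrays. Of the 3 probes of rhcga, 2 had enough values to be tested, and they differed, with means of -0.88 and -0.04. Sodium pump subunits, a known target of silver ions as proteins, had list medians of -0.03, -0.23 and -0.09 in Cy5 and 0.09, 0.07 and 0.17 in Cy3. The medians differed in sign between the orientations, and 1 of 17 members had an unadjusted p under 0.05, the alpha subunit atp1a1a.5 at -0.16 (SE 0.05), with -0.33 in Cy5 and 0.01 in Cy3.

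In the retina, photoreceptor and visual cycle genes held values of both signs. Of 65 tested, 41 were higher and 24 lower (31 when turned) with a median of 0.10, and the unadjusted p was under 0.05 for 10 on the higher and 4 on the lower side. On 6 of 6 arrays, 9 of 64 were higher and 4 lower. The opsin opn1mw1, the pigment of green cones, had log2 ratios of 0.35, 0.47 and 0.44 in Cy5 and 0.52, 0.57 and 0.39 in Cy3, with a mean of 0.46 (SE 0.05, limma adjusted p = 0.433). The red cone opsin opn1lw2 ran from 0.24 to 0.64, with a mean of 0.42 (SE 0.06). Both opsins were above 0 on every array and with both probes each. The opsin copies lie in tandem and are alike, so their probes may bind more than 1 of them. The photoreceptor potassium channel subunit kcnv2b stood at 0.62 (SE 0.11), between 0.03 and 1.11.

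Against these stood pde6ga, the inhibitory subunit of the phosphodiesterase that turns light into a fall of cyclic GMP. Its log2 ratios were -1.64, -1.70 and -1.84 in Cy5 and -1.64, -0.97 and -2.04 in Cy3, with a mean of -1.64 (SE 0.14, limma adjusted p = 0.266). It was read by 1 probe. The guanylate cyclase activator guca1c, which restores cyclic GMP after light, ran from -0.86 to -0.36, with a mean of -0.59 (SE 0.08) and both probes lower. Both genes were below 0 on every array.

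**Figure D3:**
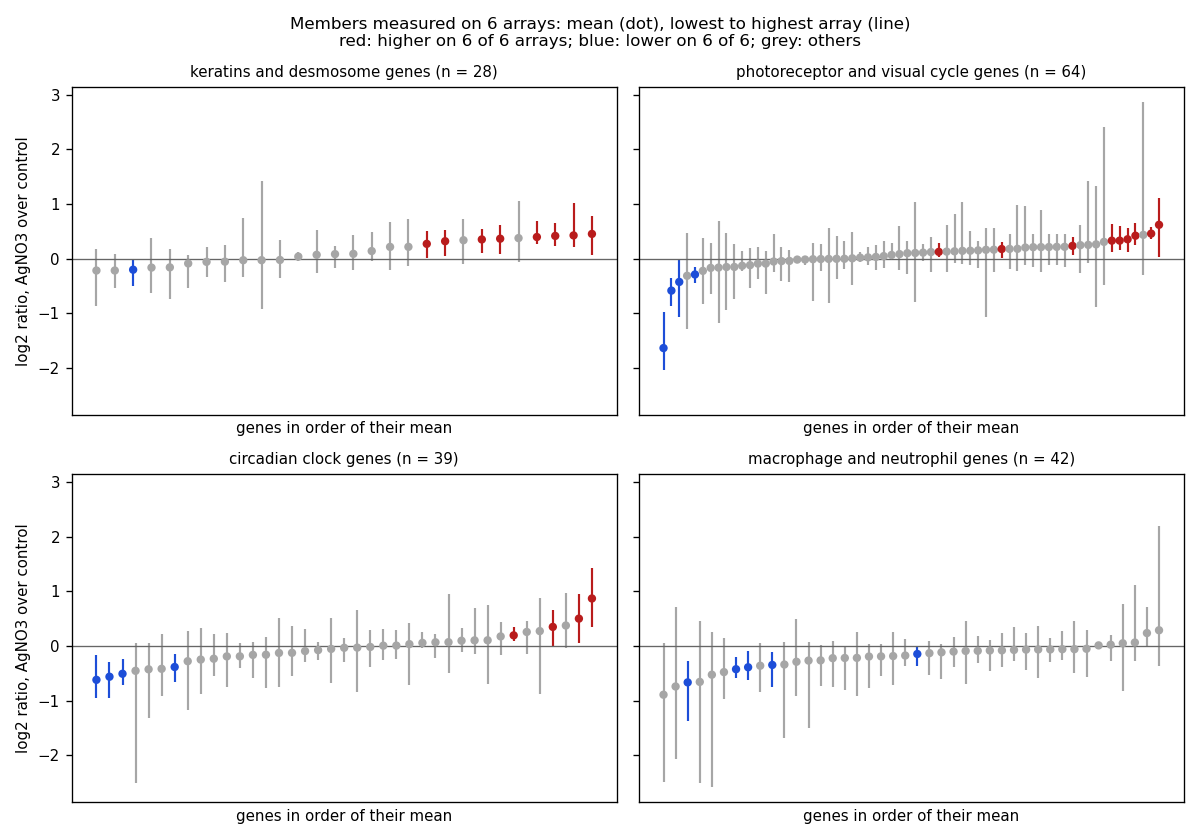
Members with values on all 6 arrays in 4 lists, each ordered by its mean log2 ratio (dot, vertical axis), with a line from the lowest to the highest array. Red marks members higher on 6 of 6 arrays and blue those lower on 6 of 6: 8 and 1 of 28 keratin genes, 9 and 4 of 64 photoreceptor genes, 4 and 4 of 39 clock genes, and 0 and 5 of 42 macrophage and neutrophil genes.

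Circadian clock genes also lay on both sides. The vertebrate clock is a loop in which Clock and Bmal proteins switch on the genes of their own repressors, so that activators and repressors peak at different times of day. Of 42 tested, 17 were higher and 25 lower (median -0.06), with 5 members at an unadjusted p under 0.05 on each side. The repressor bhlhe41 had log2 ratios of -0.94, -0.84 and -0.80 in Cy5 and -0.54, -0.42 and -0.16 in Cy3, with a mean of -0.62 (SE 0.07, limma adjusted p = 0.429), and 3 of 3 probes were lower. All of its Cy5 arrays were lower than its Cy3 arrays, and none reached 0. Its probes differed, however, with means of -1.07, -0.49 and -0.28. On replicates 5 and 6 only the first of these was below 0, at -1.73 and -0.88. The others read 0.33 and 0.14 on replicate 5 and 0.40 and 0.0016 on replicate 6.

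The nuclear receptor gene nr1d1 (Rev-erb alpha), which represses bmal genes, ran from -0.72 to -0.23, with a mean of -0.51 (SE 0.08). The value of ciarta, a repressor of Clock and Bmal in mammals, was -0.56 (SE 0.10), from -0.94 to -0.29. On the higher side, bmal1a had log2 ratios of 0.36, 1.14 and 0.94 in Cy5 and 0.50, 0.85 and 1.43 in Cy3, with a mean of 0.87 (SE 0.16), read by 1 probe. The cryptochrome cry4 stood at 0.35 (SE 0.06), with 0.55 in Cy5 and 0.15 in Cy3. All of these genes had the same sign on 6 of 6 arrays. No source used here gives the hour at which each sample was taken, and its part in these values was not tested.

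Genes of digestion were counted by organ. Enzymes of the exocrine pancreas were higher for 20 of 26 members, with a list median of 0.13, the highest among the 43 lists, but with the swapped arrays turned 17 of 26 were lower and the median was -0.06. It was below 0 on replicates 3 and 5, at -0.14 and -0.02, and the unadjusted p was under 0.05 for 2 on the higher and 0 on the lower side. The amylase amy2a ran from 0.16 to 0.63, with a mean of 0.38 (SE 0.08). The chymotrypsinogen ctrb.3 ran from 0.00 to 0.92, with a mean of 0.43 (SE 0.13). Carboxypeptidase cpa1, at 0.27, became 0.16 without replicate 1, and the trypsin prss59.1 stood at 0.19 (SE 0.08).

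Enterocyte genes, which digest and take up nutrients at the gut wall, were lower for 17 of 28 members, and the unadjusted p was under 0.05 for 6 on the lower and 2 on the higher side. The brush border phosphatase alpi.2 ran from -0.70 to -0.23, with a mean of -0.45 (SE 0.08). The peptide transporter slc15a1b stood at -0.50 (SE 0.12), anpepb.1, an aminopeptidase, at -0.41 (SE 0.10) and slc5a1, the sodium-glucose transporter, at -0.28 (SE 0.07). These were the 4 members lower on 6 of 6 arrays, of 27. The list median nevertheless was above 0 on replicates 1 and 4. Probes of these genes differed in size, with means of -0.17 and -0.73 for alpi.2 and -0.71 and -0.12 for anpepb.1. For slc5a1 they were -0.11, -0.10 and -0.64, and the probe at -0.10 read 0.31 and 0.50 on replicates 5 and 6. The gene slc15a1b was read by 1 probe.

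Liver genes were also mixed, with 14 of 30 apolipoprotein and liver secretory genes higher. The liver fatty acid binding protein fabp10a ran from 0.08 to 0.60, with a mean of 0.28 (SE 0.07), and apoa1a, of high-density lipoprotein, stood at 0.27 (SE 0.08). Transthyretin (ttr), a carrier of thyroid hormone, stood at 0.39 (SE 0.11) with 0.10 in Cy5 and 0.68 in Cy3, whereas serpina7, the gene of thyroxine-binding globulin in mammals, stood at -0.40 (SE 0.11). The value of cyp7a1, the rate-limiting enzyme of bile acid synthesis, was lower on 6 of 6 arrays, from -0.91 to -0.19, with a mean of -0.51 (SE 0.07). Its 3 probes differed, at -0.22, -1.01 and -0.30. The cytochrome cyp3a65, of liver and gut, stood at 0.34 (SE 0.09).

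Energy genes held a few values above 0. Fatty acid oxidation genes were higher for 24 of 35 members (11 when turned), with a median of 0.07 (-0.04 when turned). At an unadjusted p under 0.05 there were 5 higher and 1 lower members. The carnitine palmitoyltransferase cpt1b, which brings fatty acids into mitochondria of muscle, ran from 0.03 to 1.26, with a mean of 0.54 (SE 0.12). The electron transfer flavoprotein gene etfa stood at 0.22 (SE 0.07), and both were higher on 6 of 6 arrays. The peroxisomal enzyme ehhadh, at 0.22 as well, gave -0.12 in Cy5 and 0.57 in Cy3. The uncoupling protein ucp3 was the lower member, at -0.30 (SE 0.11) and -0.19 without replicate 2. A subunit that brings protein phosphatase 1 to glycogen, ppp1r3c2b, had log2 ratios of 0.90, 0.82 and 0.78 in Cy5 and 0.76, 0.77 and 0.26 in Cy3, with a mean of 0.71 (SE 0.09). The peroxisomal oxidase pipox, which breaks down sarcosine and pipecolic acid in mammals, stood at 0.45 (SE 0.07), from 0.25 to 0.63. Its 2 probes differed, with means of 0.08 and 0.81. Threonine dehydrogenase (tdh) stood at -0.41 (SE 0.13), with -0.72 in Cy5 and -0.10 in Cy3.

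Glucocorticoid response and stress axis genes were lower for 20 of 33 members, with 3 lower and 0 higher at an unadjusted p under 0.05. These were cebpb at -0.37 (SE 0.13, and -0.25 without replicate 4), the kinase sgk1 at -0.36 (SE 0.12) and klf9 at -0.45 (SE 0.18). Each of the 3 was uneven: sgk1 gave -0.62 in Cy5 and -0.10 in Cy3, and klf9 was -1.11 on replicate 2 and became -0.27 without it. Growth genes showed little: of 55 cell cycle and DNA replication genes, 31 were higher and 0 had an unadjusted p under 0.05. Of 30 genes for p53 and its targets, 18 were lower, with a median of -0.07 that became 0.04 without replicate 4, and 3 lower and 1 higher had an unadjusted p under 0.05. The lower ones were rps27l, a ribosomal protein, at -0.60 (SE 0.18), the kinase plk2b at -0.32 (SE 0.11) and bbc3 (Puma), which promotes cell death, at -0.19 (SE 0.07), the last lower on 6 of 6 arrays. The higher one was sesn3, a stress-inducible regulator of growth signalling, at 0.42 (SE 0.08), with 0.71 in Cy5 and 0.14 in Cy3.

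Skeletal genes were higher for 26 of 42 members (14 when turned), with 5 higher and 1 lower at an unadjusted p under 0.05. Among them and3, an actinodin of the fin fold, stood at 0.47 (SE 0.09) and matn4, a cartilage matrilin, at 0.33 (SE 0.11), which became 0.22 without replicate 3. The value of and3 was 0.20 in Cy5 and 0.74 in Cy3. Its relative and1 stood at 0.34 (SE 0.12), and thbs4b, a thrombospondin of tendon, was the lower member at -0.28 (SE 0.09). In muscle, sarcomere genes were split 52 to 36 (median 0.03), with 6 higher and 5 lower at an unadjusted p under 0.05. Among these was the myosin heavy chain gene myh7 at -0.28 (SE 0.08), lower on 6 of 6 arrays. The slow troponin tnnt1 stood at -0.36 (SE 0.11), with 0.05 in Cy5 and -0.78 in Cy3, and the fast light chain mylpfb at 0.28 (SE 0.08). The parvalbumin pvalb8, a calcium buffer that the list also holds, was lower on 6 of 6 arrays, with a mean of -0.46 (SE 0.10). The tissue in which these genes were expressed was not examined.

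In the remaining lists the members of low p lay on both sides or were few. In the eye and nervous system, 32 of 49 lens crystallins were higher, but their list median ran from -0.30 on replicate 1 to 0.47 on replicate 2, and 0 had an unadjusted p under 0.05. Synaptic vesicle genes were split 24 to 22, with 1 higher and 2 lower at an unadjusted p under 0.05, among them the synaptotagmin syt5a at -0.24 (SE 0.06), lower on 6 of 6 arrays. Myelin and glia genes were split 11 to 13, with 1 lower member of low p, cldn19, at -0.27 (SE 0.10).

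Lysosomal cathepsin and proton pump genes were split 19 to 21, and 3 members on each side of 40 had an unadjusted p under 0.05. Beside ctss2.1, the cathepsin L gene ctsla stood at -0.42 (SE 0.11), lower on 5 arrays, whereas the cathepsin B gene ctsbb stood at 0.32 (SE 0.09), with -0.01 in Cy5 and 0.65 in Cy3. The proton pump subunit atp6v0a1a stood at -0.21 (SE 0.06), with -0.46 in Cy5 and 0.04 in Cy3. Aryl hydrocarbon receptor and cyp1 genes were split 10 to 10, with 2 higher and 1 lower of 20 at an unadjusted p under 0.05. The higher ones were cyp3a65 and ugt1a1, which couples glucuronic acid to bilirubin and drugs, at 0.25 (SE 0.07), with -0.22 in Cy5 and 0.72 in Cy3. The lower one was the receptor's repressor ahrra, at -0.25 (SE 0.08), lower on 6 of 6 arrays.

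Collagen genes were higher for 19 of 34 members, with 2 higher and 1 lower at an unadjusted p under 0.05. The cartilage collagens col9a1b and col9a3 stood at 0.23 (SE 0.07) and 0.26 (SE 0.10) and col11a1b at -0.40 (SE 0.14). Respiratory chain and ATP synthase subunits were higher for 51 of 82 members (median 0.03), with 2 higher and 3 lower at an unadjusted p under 0.05. Of these cox5b2, a subunit of cytochrome oxidase, was lower on 6 of 6 arrays, at -0.27 (SE 0.06), although 1 of its 4 probes was higher. The values of uqcrc1 and atp5pd were -0.34 (SE 0.12) and 0.19 (SE 0.07), and cox6b1, at 0.15 (SE 0.06), gave 0.45 in Cy5 and -0.15 in Cy3.

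Genes of gluconeogenesis and glycogen were split 13 to 13 and those of cholesterol synthesis and uptake 11 to 14. Those of threonine, glycine and serine metabolism were split 14 to 12, with glyctk, a glycerate kinase, at 0.17 (SE 0.07). Vitellogenins, estrogen receptors and aromatases were lower for 15 of 27 members, and zp2.2, an egg coat gene that the list also holds, stood at -0.37 (SE 0.09). Of the 5 probes of zp2.2, 2 had enough values to be tested, and they differed in sign, with means of -0.47 and 0.05. Pigment cell genes were higher for 17 of 28 members and 0 had an unadjusted p under 0.05.

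Further genes were among the 15 of lowest p on their side. On the higher side, tmx3a, a thioredoxin-like protein of the endoplasmic reticulum membrane, stood at 0.93 (SE 0.17), from 0.33 to 1.53. The calcium sensor gene syt9b, a synaptotagmin, stood at 0.46 (SE 0.08), fgf24, a growth factor of the zebrafish fin bud, at 0.44 (SE 0.06), and bambib, a decoy receptor for BMP and activin, at 0.27 (SE 0.05). The gene zgc:171534, with 3 of 3 probes higher, stood at 0.33 (SE 0.06). On the lower side were dhrs13a.2, a short-chain dehydrogenase, at -0.70 (SE 0.09), si:ch211-153b23.5 at -0.71 (SE 0.10), tcnbb, of the family of vitamin B12 carriers, at -0.58 (SE 0.09), and the globin gene hbae3 at -0.49 (SE 0.07). All 9 had the same sign on 6 of 6 arrays. Other globins did not share the value of hbae3: 10 of 15 globin genes were lower, with a median of -0.06 and 1 member at an unadjusted p under 0.05.

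Values often differed between the dye orientations, which are also different samples (replicates 1 to 3 and 4 to 6), so that dye and sample set cannot be told apart. Of the 30 genes of lowest p, 15 on each side, 24 had the same sign on 6 of 6 arrays, and 6 did not. The 6 exceptions were much farther from 0 in 1 orientation than in the other. The value of cept1a, a phospholipid-synthesis enzyme, was -0.11, 0.08 and -0.03 in Cy5 but -2.68, -3.65 and -3.43 in Cy3. For mtif3, a mitochondrial translation factor, the orientation means were 0.07 in Cy5 and -1.61 in Cy3, and for dync1li1, a dynein subunit, 0.05 and 1.05. For gpr137c they were 0.18 and 0.75. The pattern ran the other way for depdc1a, with -1.48 in Cy5 and 0.14 in Cy3, and for zgc:174917, with -1.39 and -0.19. In dync1li1 the Cy3 mean rested on different probes. On replicates 4 to 6, 1 probe read 2.27, 0.09 and 0.01 and the other -0.35, 1.69 and 2.56. A further gene, rnf213a, was lower on 6 of 6 arrays but gave -0.11 in Cy5 and -0.89 in Cy3.

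With a dye term, the mean of such a gene is the midpoint of both orientations. Over all features with an unadjusted p under 0.05 and values on every array, 568 of 1303 had the same sign on 6 of 6 (43.6%), against 4.52% of all features, and 156 had orientation means of opposite sign. Same sign and low p rest on the same values, so the gap between these shares is a description. The dye term itself passed for 0 features in limma (smallest adjusted p 0.224), with 1919 at an unadjusted p under 0.05. Ribosomal protein genes had list medians of 0.10, 0.22 and 0.22 in Cy5 and -0.20, -0.10 and -0.17 in Cy3. Of 77 members the unadjusted p was under 0.05 for 1 on the higher and 3 on the lower side: rpsa at 0.16 (SE 0.05), rpl4 at -0.18 (SE 0.07), rps8b at -0.20 (SE 0.08) and rps27l, named above with p53 targets.

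Should the deposited values of the swapped arrays not have been turned, values even across orientations would be differences between orientations, and opposed ones differences between exposed and control larvae. Of the 139 named features 74 would change sign, as would the medians of 22 of the 43 lists. Then ace would stand at -0.04 (adjusted p = 0.861), grna.2 at -0.01 (adjusted p = 0.928) and cept1a at 1.61 (adjusted p = 0.224), and 0 features would pass. Ribosomal protein genes would have the highest list median, 0.19, with 15 of 77 lower. In limma, 34 of these genes would be higher and 1 lower at an unadjusted p under 0.05. Over all features the numbers would be 910 and 1009. A further reading is that the ratio has the opposite channel order on every array, and every sign given here would then be reversed. The sources used here do not settle which reading holds.

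**Figure D4:**
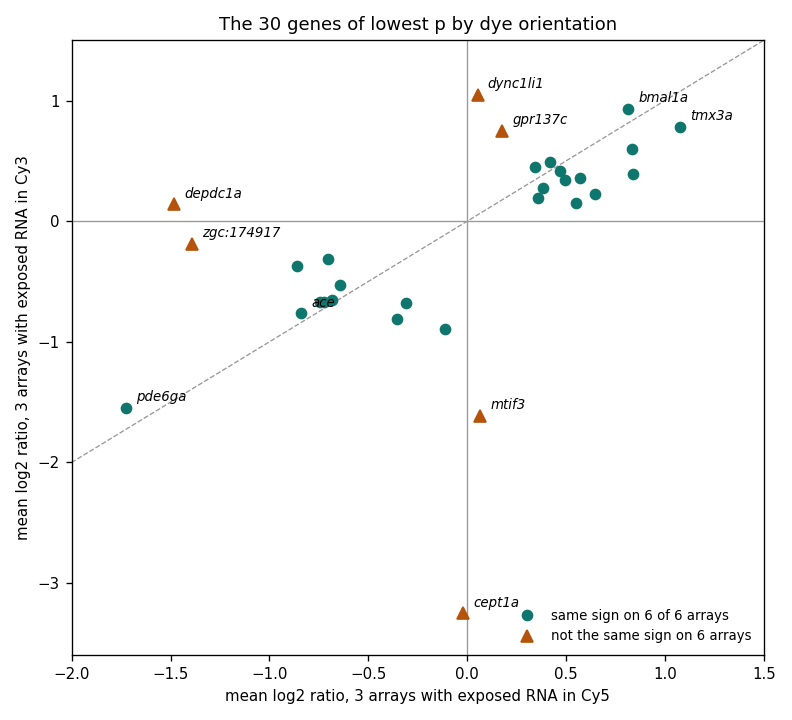
The 30 genes of lowest p, 15 on each side, by the mean log2 ratio of replicates 1 to 3, exposed RNA in Cy5 (horizontal axis), and of replicates 4 to 6, in Cy3 (vertical axis); the dashed line marks equal values. Circles had the same sign on 6 of 6 arrays (24 genes) and triangles did not (6 genes), such as cept1a at -0.02 and -3.25.

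The nanoparticle arrays give the same genes under the other form of silver. Each AgNO3 array shared its control sample with 1 AgNPs array, per the sample codes, so the values are set side by side and their likeness is not measured. In the fit on all 12 arrays, 0 of 25264 features differed between AgNO3 and AgNPs past an adjusted p of 0.05 (0%; smallest 0.858, limma), and 1066 had an unadjusted p under 0.05, of which 417 were higher and 649 lower in AgNO3. A difference below is the log2 ratio in AgNO3 minus that in AgNPs, with its 95% interval.

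For ace the ratio was -0.80 in AgNO3 and -1.39 in AgNPs, and the difference was 0.59 (0.29 to 0.88). For opn1mw1 it was 0.46 and 0.86, with a difference of -0.41 (-0.66 to -0.15), and for opn1lw2 0.42 and 1.19, with a wide interval of -1.48 to -0.06. In these genes both forms stood on the same side of 0 and the nanoparticles farther from it. The value of nr1d1 was likewise -0.51 against -0.99, with a difference of 0.49 (0.01 to 0.96).

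Other genes were farther from 0 in silver nitrate than in nanoparticles. They were named for a low p in AgNO3, and a gene chosen so tends to lie nearer 0 in any other comparison, so their intervals lean towards a difference. The difference was -0.50 for grna.2 (-0.73 to -0.27), where AgNPs gave -0.17. It was -0.50 for hspa5 (-0.68 to -0.31), where AgNPs gave 0.09. For mpeg1.1 it was -0.45 (-0.72 to -0.19) and for ctss2.1 -0.69 (-1.08 to -0.30), with AgNPs at 0.03 in both. The keratins cyt1 and cyt1l differed by 0.41 (0.07 to 0.76) and 0.42 (0.12 to 0.72), with AgNPs at 0.00 and 0.03. The globin gene hbae3 lay on opposite sides, at -0.49 and 0.40, with a difference of -0.89 (-1.28 to -0.51). None of these differences passed the adjustment over all features, and their intervals are not adjusted for the number of genes.

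For some other genes the interval of the difference held 0. Among these was the keratin krt91, with a difference of 0.28 (-0.02 to 0.57). The difference was 0.05 for bhlhe41 (-0.34 to 0.43), -0.35 for pde6ga (-1.09 to 0.40), -0.21 for bmal1a (-0.87 to 0.44) and 0.14 for guca1c (-0.13 to 0.41). For the metallothionein mt2, which was named whatever its value, the ratios were -0.04 in AgNO3 and 0.22 in AgNPs. Its difference of -0.26 had an interval below 0 (-0.48 to -0.04), with an unadjusted p of 0.0248 that did not pass the adjustment. The value of mt2 in AgNO3 averages probes that differed, as given above. The list medians in AgNPs were -0.02 for macrophage and neutrophil genes, 0.01 for endoplasmic reticulum genes and 0.03 for keratins, beside -0.14, -0.10 and 0.09 in AgNO3. For other lists the nanoparticle median lay farther from 0 on the same side. It was 0.16 beside 0.02 for cell cycle and DNA replication genes and 0.15 beside 0.04 for lens crystallins. Smaller gaps were those of clock genes (-0.11 beside -0.06), enterocyte genes (-0.11 beside -0.05) and renin-angiotensin genes (-0.09 beside -0.05). For exocrine pancreas enzymes, at 0.13 in AgNO3, the AgNPs median was -0.02. Differences between list medians were not tested. The spread of the AgNPs arrays was narrower, with an interquartile range of 0.0946 to 0.293, and its part in these differences was not tested.

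**Figure D5:**
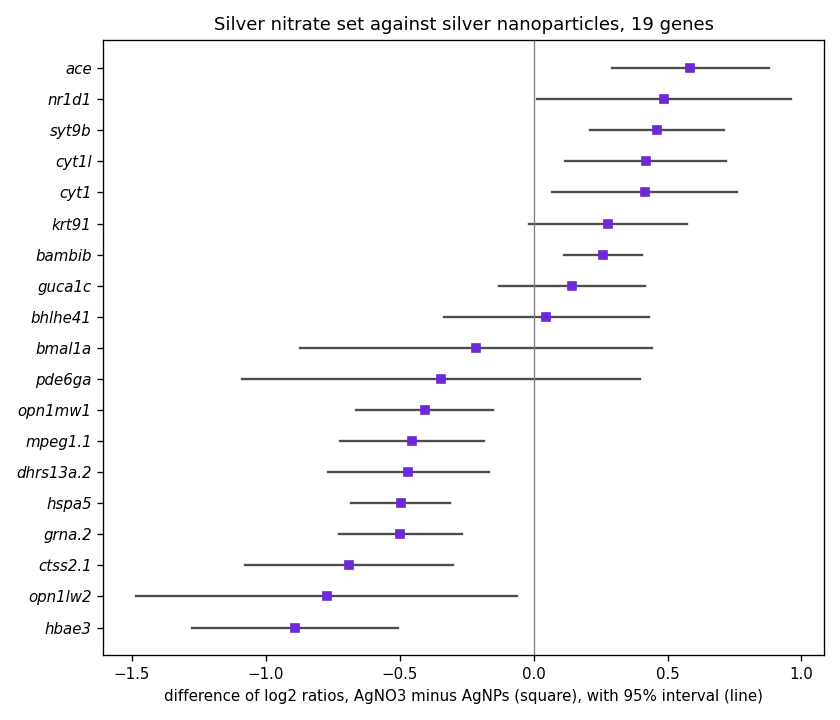
Difference of log2 ratios, AgNO3 minus AgNPs (square, horizontal axis), with its 95% interval (line) for 19 genes, from the fit on all 12 arrays. The interval of ace lies above 0 (0.29 to 0.88) and that of hspa5 below it (-0.68 to -0.31). Those of bhlhe41, bmal1a, pde6ga, guca1c and krt91 span 0.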

How the data were processed

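Per the labels' protocols, total RNA (Trizol extraction) was copied with cyanine-labelled nucleotides and 2 samples were put on each array. The authors deposited a table of processed values for 43603 probes per array, taken here as log2 ratios of both channels, already normalized and centred near 0. Neither the log base, the scanner software nor the background correction is stated in the sources used here.

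Names came from the platform annotation and were brought up to date through an accession for 24749 probes, a current symbol for 4278 or a synonym for 1133; 26 kept an old symbol and 13417 had none. Probes of a gene were averaged per array, giving 28497 features. Testing needed values on 2 or more of the 3 arrays in each dye orientation; 5582 of those tested had gaps. Series columns not used numbered 0. Means of the 6 AgNO3 arrays were tested against 0 in limma 3.58.1 (R 4.3.3) with dye orientation coded +1 and -1, moderated 2-sided tests and Benjamini-Hochberg adjustment, after a run on simulated data. The difference from AgNPs came from 1 fit of all 12 arrays. The residual degrees of freedom of a feature without gaps were 4, so precision is limited by how few arrays there are.

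The members, lists and tests were chosen with earlier results of these data known, and the 43 lists were given no test. A gene could be named if it passed in either fit, was among the 15 of lowest p on each side or the 4 of lowest p in a list, with values on 6 arrays, or was mt2, hmox1a, hsp70l, gclm, cyp1a or slc30a1a. Of 191 features so allowed, 139 are named: all 124 with an unadjusted p under 0.05, and 15 others picked after their values were seen. Replicate numbers did not pair the samples: same-numbered AgNO3 and AgNPs arrays correlated at -0.147 to 0.0127 in their residuals. AgNO3 and AgNPs arrays with the same control sample correlated at -0.0173 to 0.0694 in theirs. Alternatives were other fits, weights, scaling, centring, gap filters, probe medians, a robust prior, turned signs and each array left out. No tables of sequence were used here.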

Additional observations from a re-analysis of the deposited data

Results flagged for a closer look

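In 7 of 182 sets of 6 values checked, 1 array stood apart from the other 5 by Dixon's criterion, which chance meets in about 1 of 20 sets. Replicate 5 gave -0.97 for pde6ga, the inhibitory phosphodiesterase subunit of photoreceptors, where the next array gave -1.64. The same replicate gave -1.34 for ccs, the copper chaperone, against -0.36 for the next, and -1.52 for the ammonia channel rhcga against -0.56. On replicate 5 the tested probes read -0.0039 for ccs, and -1.38 and -0.0017 for rhcga. In both genes a probe with too many gaps to be tested also entered the mean of that array. Replicate 6 gave 0.256 for ppp1r3c2b, a glycogen-targeting phosphatase subunit, against 0.76. Among list medians, that of collagen genes was -0.202 on replicate 1, that of fatty acid oxidation genes -0.13 on replicate 2 and that of respiratory chain genes -0.0729 on replicate 3, each below 0 where the other 5 arrays were above it.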

How the results depend on the processing

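With all 12 arrays in 1 fit, 3 features and 1 single probe (A_15_P670166, chosen after its value was seen) passed against control; that fit shares 1 spread with the AgNPs arrays and tests fewer features, and the cause was not tested. In every other alternative run, 0 passed: without a dye term the smallest adjusted p was 0.0658, with array weights 0.142, with a common spread 0.574, with probe medians 0.231, with a robust prior 0.29, with features on all arrays 0.175, with arrays centred 0.271, with swapped arrays turned 0.224 and without replicate 4 0.0912. The difference AgNO3 minus AgNPs gave 0 to 1 features with an array left out; the 1 was arid6 without AgNO3 replicate 4 (adjusted p = 0.0415; named after its value was seen), and the cause was not tested. With the replicate block this difference gave 0 (smallest adjusted p 0.878) and with control sample as a block 0 (0.743), so the block changed no call.

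Turning the swapped arrays aside, 1658 of 1667 tested alternative values of the 139 named features kept their direction. The 9 that changed sign all left out 1 array: the means then ran from -0.32 to 0.0014 for grna.1, -0.17 to 0.014 for grna, -0.11 to 0.0034 for mt2 (0.0029 without replicate 6), -0.50 to 0.16 for hsp70l (0.0064 without replicate 1), -0.081 to 0.064 for gclm (0.013 without replicate 5) and -0.24 to 0.027 for cyp1a. With the swapped arrays turned, an alternative added for single genes after seeing the data, 74 of the 139 changed sign, by construction those farther from 0 in Cy3 than in Cy5. Their means were then, in log2 ratio, A_15_P760451 0.013, cept1a 1.61, mtif3 0.84, rnf213a 0.39, hbae3 0.18, tcnbb 0.23, opn1mw1 -0.035, dync1li1 -0.50, gpr137c -0.29, krt91 -0.053, bmal1a -0.059, cyt1 -0.021, cyt1l -0.13, ctss2.1 0.18, cxcr4b 0.10, hspa5 0.077, creld2 0.43, herpud1 0.017, psmc2 0.088, psmb10 0.0013, amy2a -0.039, cpa1 -0.079, alpi.2 0.012, anpepb.1 0.14, cpt1b -0.26, ehhadh -0.35, etfa -0.022, fabp10a -0.13, ttr -0.29, apoa1a -0.091, gpx4a 0.20, txnl1 0.0204, prdx1 -0.15, gstp1.1 0.34, hsp70.3 0.32, fkbp4 -0.048, klf9 0.064, enpep 0.17, ccs 0.19, mtbl -0.37, slc25a37 0.26, rhcga 0.16, and3 -0.27, b2m 0.22, ifi27.1 0.34, pvalb8 0.098, cyp3a65 -0.20, ahrra 0.052, grnb 0.017, grna.1 0.025, mt2 0.092, hmox1a 0.086, hsp70l 0.18, gclm 0.027, cyp1a 0.43, slc30a1a 0.11, abcc2 0.34, ugt1a1 -0.47, gsta.1 -0.27, zp2.2 0.25, col11a1b 0.16, col9a3 -0.13, thbs4b 0.087, and1 -0.18, glyctk -0.075, rps8b 0.048, uqcrc1 0.24, cldn19 0.23, cldn2 -0.17, cldn23.1 0.049, mylpfb -0.32, tnnt1 0.41, myh7 0.066 and ctsbb -0.33. List medians, tried after seeing the data, changed sign in 22 of 43 lists when turned. Under the other alternatives they stayed within 1 SD of the array medians in 510 of 516 cases; the others were ionocyte, p53 and keratin genes, the last at 0.14 to 0.15.

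With 6 arrays, unknown intensities and a direction that is not settled, a gene without a low p was not shown to be unaffected.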
